A study of Homo sapiens with 21 samples.

Results

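The ribosome occupancy of messenger RNAs was described in wild-type (WT) cells of a human lung epithelial cell line, by setting ribosome footprints against mRNA gene by gene. A gene entered when its mean over the 3 WT libraries was at least 5 CPM (footprint counts scaled to the size of the library) and at least 5 TPM (mRNA scaled to transcript length and library size). This held for 8384 of the 17671 genes named in both tables. Of the rest, 996 genes reached the mRNA level only, 755 the footprint level only and 7536 neither. Just inside the footprint limit lay OLFML2A at 5.005 CPM and just outside it FLYWCH2 at 4.996 CPM. The series compared this line with isogenic derivatives that had lost chromosome arm 3p, gained 3q or lost 8p, in 21 libraries from 7 groups of 3 biological replicates. The footprint libraries came from WT cells labelled 3p WT, grown under standard conditions and given 10 µg/µL cycloheximide for 5 min before lysis, and the fragments were purified with RiboLace Pro and enriched for sizes below 200 nt. The mRNA libraries came from WT cells labelled Chr3 WT with no drug named, and polyadenylated RNA was read in pairs of 100 bp. Libraries of 3p loss cells, made in the same way, and mRNA of WT cells from the chromosome 8 system (8p WT), sequenced separately on another platform, are set beside the WT values. The labels name the line only as a lung epithelial cell and do not say whether WT or derivatives were single clones.

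A translating ribosome shields a short stretch of mRNA from nuclease, so that the number of such footprints from a gene follows how many ribosomes are at work on its mRNAs. Divided by the amount of mRNA, it gives a relative number of ribosomes per mRNA molecule. A long coding sequence has room for more ribosomes than a short one at the same spacing, and footprints were not scaled by length here, so that the ratio reads ribosomes per molecule and not ribosome spacing. Translation is known to be set gene by gene: mRNAs with a terminal oligopyrimidine (TOP) start, which encode ribosomal proteins and elongation factors, follow growth signals through mTOR and LARP1. Small upstream reading frames hold back ATF4 and other stress genes, and iron regulatory proteins bind the leaders of the ferritin mRNAs.

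The libraries carried markers of epithelial cells. All 14 genes of a list of basal and general epithelial markers were members, led by KRT5, a keratin of basal cells. Their summed level was 13198 to 13406 CPM and 11244 to 18680 TPM per library. The list also holds KRT8, KRT18, KRT19, CDH1 and EPCAM, which are not particular to basal cells. None of 10 ciliated, secretory and alveolar markers was a member, 8 of them had no footprint, and their sum was 6.84 to 9.81 CPM. Of 13 markers of blood, endothelial, liver and mesenchymal cells, CD68 and ACTA2 were members, and the whole list summed to 34.1 to 36.5 CPM. Footprint totals were 7976310, 5630920 and 8521557 counts. Footprint replicates 1 and 2 lay closer to each other than to replicate 3, with a chi-square per degree of freedom of 1.38 against 10.3 and 7.86, and were kept as separate samples. The mRNA libraries correlated at 0.948 to 0.964 across genes on the log2 scale.

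The ratio of footprints to mRNA ranged over a far wider span than the replicate error. It is given throughout as a log2 difference from the median gene, so that 1 stands for 2-fold more footprints per mRNA than the median gene. Its standard deviation (SD) over the 8384 genes was 1.55, against a median standard error (SE) per gene of 0.156, and the quartiles at -0.96 and 0.97 stood 3.79-fold apart. In limma's test against a minimum change of 2-fold, with Benjamini-Hochberg adjustment over all 8384 genes, 1355 genes (16.2%) lay above the median gene and 1345 (16.0%) below it. Footprint and mRNA levels correlated across genes with Pearson's r = 0.539 and Spearman's rho = 0.526. Footprints and mRNA came from separate preparations under separate protocols, so that the assay and the experiment cannot be told apart in any single ratio.

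**Figure D1:**
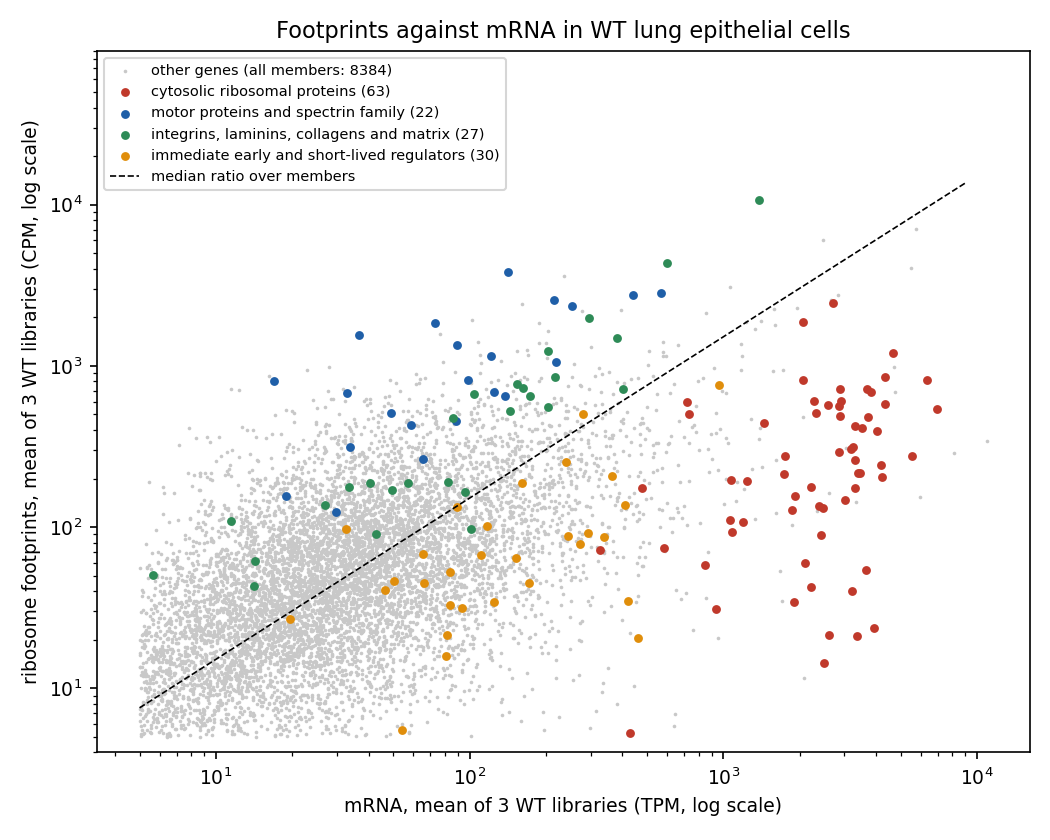
Mean ribosome footprints (CPM, y axis, log scale) against mean mRNA (TPM, x axis, log scale) of the 8384 genes in WT cells, each the mean of 3 libraries, with 4 gene lists in colour and the median ratio as a dashed line. Ribosomal protein genes lie to the right of and below the line, motor and spectrin family genes above it.

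The genes with the most footprints came from several classes. FN1, the adhesive matrix protein fibronectin, had 10736, 10745 and 10655 CPM, the highest of all members and 1.07% of the footprints. Its mRNA stood at rank 80 among members with 1056, 1662 and 1421 TPM. KRT5 followed with 7157, 7141 and 6802 CPM from 3379, 6384 and 7509 TPM. EEF2, the elongation factor that moves the ribosome along by a codon, was next at 6019 ± 494 CPM (SD, n = 3), and THBS1, the matrix protein thrombospondin, had 4318 ± 122 CPM. ACTB (cytoplasmic actin), PRKDC (the DNA repair kinase DNA-PKcs) and FASN (fatty acid synthase) came after them at 4071, 3846 and 3625 CPM. Among members, footprints, which are not scaled by length, were spread over more genes than mRNA, which is. The 10 highest members held 4.83% ± 0.07 of the footprints and 7.10% ± 0.73 of the mRNA (SD, n = 3). The 100 highest held 16.4% and 29.99%, and 25 genes were in both sets of 100. Abundant mRNAs that missed the footprint limit, such as RPS18 at 7957 TPM, are not in these ranks and shares.

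The genes with the most footprints per mRNA encoded very large proteins. KMT2D, a histone H3 lysine methyltransferase, had 668.5, 679 and 797 CPM from 10.8, 12.0 and 11.6 TPM, and its ratio of 5.29 (SE 0.12) meant 39.2-fold more footprints per mRNA than the median gene (limma, adjusted p = 7.2e-08). The giant AAA protein MDN1, which matures the large ribosomal subunit, had 875, 871 and 852 CPM from 17.4, 17.2 and 14.2 TPM, a ratio of 5.10. Over the 9 pairings of a footprint with an mRNA library the ratio ran from 5.07 to 5.53 for KMT2D and from 4.90 to 5.40 for MDN1, so that every pairing lay far above the median gene. Also among the highest 12 were the Rac activator DOCK1 (5.27), the ubiquitin ligases BIRC6 (4.93), UBR4 (4.78), RNF213 (4.77), HECTD4 (4.73) and HERC1 (4.65), the zinc finger factor ZFHX3 (4.80), the cadherin FAT1 (4.54) and the methyltransferase KMT2C (4.48). The mRNA of DOCK1 stood at 12.1, 7.25 and 17.5 TPM and that of RNF213 at 21.4, 30.3 and 16.6 TPM. Those named were also above zero by at least 2.62 when the mRNA of 8p WT cells was the denominator.

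Genes for motors, cytoskeletal linkers and other giant proteins were high throughout. All 22 members of this list were called above the median gene, beside 16.2% of all members. Their median was 2.52, with a range from 1.40 for MYO1E, a membrane-bound myosin, to 4.93 for BIRC6. The list was put together from genes known to encode large proteins, so that its direction is no result independent of length. MYO1E lost its call with either of footprint replicates 1 and 2 left out (1.38 and 1.37). MYH9, the heavy chain of non-muscle myosin, had 2711, 2691 and 3109 CPM from 509, 660 and 539 TPM, a ratio of 1.72 (adjusted p = 0.0035). FLNA, an actin crosslinker, stood at 2.02 (not called with 8p WT mRNA) and PLEC, a linker of intermediate filaments, at 2.61. Together the 22 genes took 2.71% ± 0.09 of the footprints and 0.32% ± 0.03 of the mRNA.

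Matrix and adhesion genes were the next highest list. Of 27 members, 14 were called above and 0 below, beside 16.2% and 16.0% of all members. The list median was 1.52, beside 0 for all members. FN1 had a ratio of 2.38 (SE 0.19, adjusted p = 0.00026) and THBS1 of 2.38 (SE 0.36, adjusted p = 0.0087), with the mRNA of THBS1 at 276, 808 and 718 TPM and its ratio at 0.62, not called, with 8p WT mRNA. The highest ratio belonged to FBN2, the microfibril protein fibrillin-2, at 3.27, but its mRNA was 0.657, 1.88 and 14.4 TPM and its SE 0.75, and it lost its call with any of 5 libraries left out (2.49 to 3.30) and with 8p WT mRNA (0.85). Without mRNA replicate 3 its mean mRNA was below the limit for members. SPARC, a small collagen-binding glycoprotein, was the lowest at -0.57. ITGB1 and ITGB4, the beta chains of the laminin receptors, were not called, at 0.24 and 1.44. ITGB1 was called above with 8p WT mRNA, at 1.87, and ITGB4 without mRNA replicate 2, at 1.80. The list held 2.73% ± 0.01 of the footprints and 0.56% ± 0.13 of the mRNA.

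**Figure D2:**
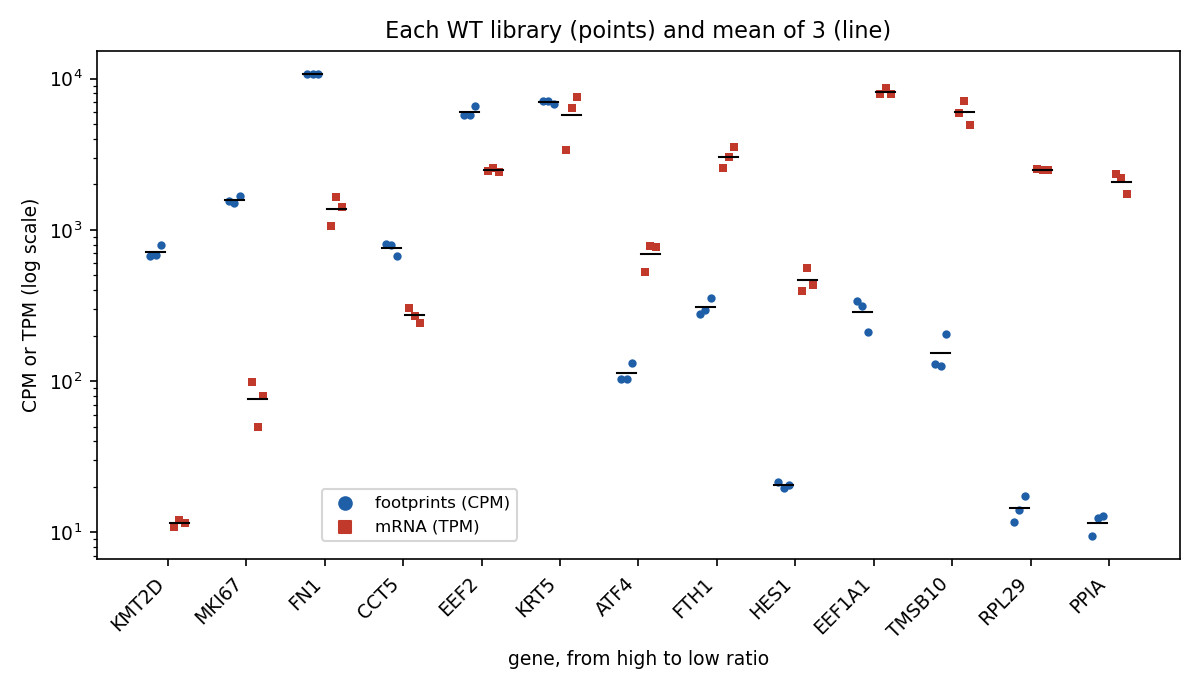
Footprints (blue circles, CPM) and mRNA (red squares, TPM) of 13 genes in each of 3 WT libraries on a log scale, with the mean as a line, ordered from high to low ratio. The gap between blue and red, which tracks the ratio, closes from KMT2D (5.29) to KRT5 (-0.24) and opens the other way from ATF4 (-3.19) to PPIA (-8.03). Replicates lie close together beside it except for KRT5, whose mRNA ran from 3379 to 7509 TPM beside a mean of 7033 CPM.

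Ribosomal protein genes sat at the other end. The cytosolic ribosomal proteins, the protein part of the ribosome, had 63 members out of 79 genes. The other 16 were under 5 CPM, and 12 of them were at 0 in all 3 WT footprint libraries. Of the members, 59 were called below the median gene and 0 above, beside 16.0% and 16.2% of all members. The median of these 63 was -3.95. RPL29 had 11.7, 14.1 and 17.4 CPM from 2540, 2480 and 2486 TPM, a ratio of -8.01 (SE 0.15, limma adjusted p = 3.2e-08). RPLP1, of the ribosomal stalk, had 296, 293 and 242 CPM from 5572, 5649 and 5470 TPM, and over the 9 pairings of libraries its ratio ran from -5.24 to -4.70, as that of RPL29 did from -8.34 to -7.63. RPS19 was the highest at -0.73, from 1916, 1926 and 1776 CPM, and was not called (1.70, called above, with 8p WT mRNA). 9 of the 12 lowest genes overall were ribosomal protein genes, and the others were PPIA, the prolyl isomerase cyclophilin A, at -8.03, the nucleosome-binding HMGN2 at -7.28 and TMA7, a small translation machinery associated protein, at -7.08.

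The size of this deficit depended on the mRNA table. The 79 ribosomal protein genes held 24.8 to 25.3% of all chromosome 3 WT TPM, 4.66 to 4.79% of 8p WT TPM and 2.32 to 2.33% of the footprints, each over 3 libraries. With 8p WT mRNA as the denominator their median was -1.52 in place of -3.95, and RPL37A went from -3.57 to 1.07. These families also have many processed pseudogenes, copies that share sequence with the parent mRNA: 62 of the 63 members had at least 1 pseudogene named after them in RefSeq, and RPL29 had 34. How the authors treated reads that match several places is not given in the sources used here, so that values of genes with near-identical copies are uncertain.

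Over all members, the median ratio was lower the more pseudogenes a gene had. The median was 0.16 for the 6785 genes with none, -0.29 for 782 genes with 1, -0.84 for 548 with 2 to 4, -1.88 for 156 with 5 to 9 and -3.14 for 113 with 10 or more. The share called below the median gene went from 12.1% through 20.8, 35.2 and 59.0% to 69.0%, beside 16.0% for all members. With 8p WT mRNA the medians ran from 0.13 to -1.72. PPIA, with 87 such pseudogenes, had 9.44, 12.5 and 12.8 CPM from 2326, 2192 and 1720 TPM, while TMA7, with none, had 5.41, 6.42 and 8.96 CPM from 611, 665 and 664 TPM. Ribosomal protein genes, with a median of -3.95 and a named pseudogene in 62 of 63 members, are part of these groups. The trend was not computed without them, and the part of shared sequence in these ratios was not tested.

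**Figure D3:**
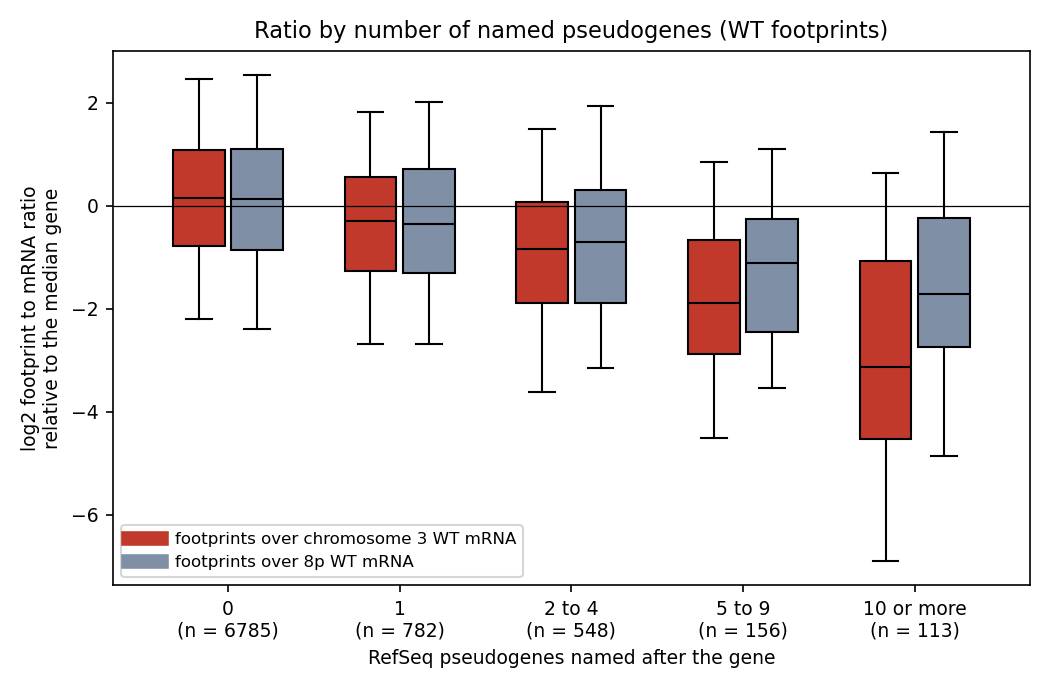
Log2 footprint to mRNA ratio relative to the median gene (y axis) by the number of RefSeq pseudogenes named after a gene (x axis), with chromosome 3 WT mRNA (red) and 8p WT mRNA (grey) as the denominator. Boxes span the quartiles with the median as a line and whiskers run from the 5th to the 95th percentile of genes; the median falls from 0.16 to -3.14 in red and from 0.13 to -1.72 in grey.

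Some abundant mRNAs had no footprint at all and were not members for that reason. Of 1488 genes with at least 100 TPM, 118 were under 5 CPM and 86 were listed at 0 in all 3 WT footprint libraries, of which 74 were also at 0 in the 3 libraries of 3p loss cells. They included RPS18 with 7957 TPM, LDHA (lactate dehydrogenase A) with 1306 TPM, B2M (the light chain of class I histocompatibility molecules) with 966 TPM and TUBB (a tubulin) with 773 TPM. ACTG1 had 1 footprint in 1 library against 3740 TPM, while ACTB, whose coding sequence is nearly identical, had 4071 CPM. Genes that every cell translates were among them, so that a 0 in this table is a listed value and no measure of translation. By counting error alone, a 0 would allow up to 3 counts, or 0.354 to 0.535 CPM per library. Of the 86 genes at 0, 46 (53.5%) had a named pseudogene, against 42.6% of the members with at least 100 TPM.

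The genes at 0 clustered along the chromosomes. Of 6163 genes with at least 20 TPM and a RefSeq position, 315 (5.11%) were at 0 in the 3 WT libraries, 5.05% of those without and 5.31% of those with a named pseudogene. On chromosome 6 between 30 and 34 Mb (RefSeq positions, GRCh38.p14), the region of the major histocompatibility complex, 50 of 64 such genes were at 0 (78.1%), against 265 of 6099 elsewhere (4.35%). They ran across unrelated functions, from the peptide transporter genes TAP1 and TAP2 to RPS18, BRD2, DAXX, DDX39B and TUBB. Other dense windows were 24 to 26 Mb of chromosome 14, with 14 of 19 genes at 0, among them the proteasome activator genes PSME1 and PSME2, and 36 to 38 Mb of chromosome 17, with 7 of 10. These windows were sorted by their share of zeros, so that their rank is a description with no test, and the cause was not tested.

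Translation factors split by gene. Among 19 elongation factor and other TOP mRNA members, 8 were called below and 1 above, with a median of -1.34, which turned to 0.14 with 8p WT mRNA. EEF1A1, which brings the aminoacyl-tRNA to the ribosome, had 338, 314 and 211 CPM from 7909, 8605 and 7864 TPM, a ratio of -5.45, and the nucleolar chaperone NPM1 stood at -5.15. Both have 50 named pseudogenes. EEF2, which has none, had 5712, 5756 and 6588 CPM from 2432, 2571 and 2421 TPM, a ratio of 0.68 that was not called, with pairings of libraries from 0.48 to 0.92. The 6 members without a named pseudogene had a median of 0.11. EIF3A, the largest subunit of initiation factor 3, was called above at 2.76. Of 31 initiation factors, 3 were above and 7 below. For both lists the shares over all members were 16.2% above and 16.0% below. The initiation factor median was -0.64 and, in the 15 without a named pseudogene, 0.36. The scaffold EIF4G1 was called above at 2.19 (not called with 8p WT mRNA, at 1.04). EIF1, which guards the choice of start codon and has 7 named pseudogenes, was called below at -2.66. EIF4EBP1, the repressor that mTOR inactivates, was the lowest at -4.28, with 17.5, 21.6 and 20.5 CPM from 168, 314 and 328 TPM.

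Transcript starts were read to see whether a TOP start went with the ratio. A tract was counted where the RefSeq start base was C and the next 4 bases were pyrimidines on the strand of the gene. The sequences below run from 10 bases before the start to 20 bases from it (RefSeq, GRCh38.p14), with the tract in capitals, and are shown because genes with the same or a similar tract had very different ratios. Those of EEF2 (chr19:3985444-3985473, minus strand), EEF1A1 (chr6:73521013-73521042, minus), RPL29 (chr3:51995876-51995905, minus), RPLP1 (chr15:69452808-69452837, plus) and RPL13A (chr19:49487598-49487627, plus) hold a tract, and those of FN1 (chr2:215436049-215436078, minus) and TMSB10 (chr2:84905646-84905675, plus) hold none.
EEF2: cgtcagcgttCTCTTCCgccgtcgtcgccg
EEF1A1: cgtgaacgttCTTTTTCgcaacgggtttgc
RPL29: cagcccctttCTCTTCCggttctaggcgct
RPLP1: ggcgcgagagCCCCTTTCCTCagctgccgc
RPL13A: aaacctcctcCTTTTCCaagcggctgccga
FN1: gcgctcggacgcccgcgccggctgtgctgc
TMSB10: ccgctcttttgtttcttgctgcagcaacgc

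EEF2 and RPL29 share the tract CTCTTCC at the start and had ratios of 0.68 and -8.01. They have 0 and 34 named pseudogenes, and the ratios are not scaled by length. A tract was present in 4.04% of the 27305 promoters in the table and in 391 of the 7022 members that matched it (5.57%). Among ribosomal protein members it was present in 32 of 50, whose median was -4.02, against -4.13 for the 18 without it at the annotated start. Outside the ribosomal proteins, 359 members with a tract had a median of -0.25 and the others 0.04. With genes that have named pseudogenes also left out, these were -0.08 for 268 members with a tract and 0.18 without. The share called below was 26.3% of all members with a tract and 15.4% of those without. With ribosomal proteins and genes with named pseudogenes left out, it was 13.8% and 11.9%. The annotated start is that of 1 transcript per gene and may not be the one used in these cells.

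Genes for the mitochondrial ribosome and the respiratory chain were called low more often than the 16.0% of all members. Of 72 mitochondrial ribosomal protein members, 35 were called below and 0 above, with a median of -1.32, which was -1.01 in the 33 without a named pseudogene. MRPL12 had 46.1, 42.8 and 52.1 CPM from 247, 327 and 246 TPM, a ratio of -3.12, and MRPS30 was the highest at 0.69 (1.41, called above, with 8p WT mRNA). Of 52 nuclear oxidative phosphorylation members, 41 were below and 0 above, with a median of -2.37 and, in the 21 without pseudogenes, -1.69. COX7C, a small subunit of cytochrome c oxidase, had 56.3, 54.4 and 50.4 CPM from 1846, 1598 and 1591 TPM. NDUFA10, a larger subunit of complex I, was the highest at 0.48 and not called (2.19, called above, with 8p WT mRNA). With 8p WT mRNA the medians were -0.87 and -1.13. The 13 genes encoded in the mitochondrial genome, absent by name from the chromosome 3 mRNA table, held 1.69% ± 0.08 of the footprints.

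Genes for short proteins were low as well. Of 18 members of a list of very short proteins, 16 were called below and 0 above, with a median of -2.34. Of 10 S100 calcium-binding proteins, 7 were below, with a median of -2.14. Over all members, 16.0% were below and 16.2% above. TMSB10, which sequesters actin monomers, had 130, 126 and 204 CPM from 5881, 7120 and 4939 TPM, a ratio of -5.90. S100A6 and S100A10, with no named pseudogene, stood at -2.04 and -1.85. MT2A, a metallothionein that binds zinc, had the most abundant mRNA of the low genes without a named pseudogene, 10990 ± 5772 TPM (SD, n = 3), and 344 ± 43.1 CPM, a ratio of -5.43 (SE 0.44). Most S100 and thymosin proteins are short, and the share of length in these ratios was not computed.

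**Figure D4:**
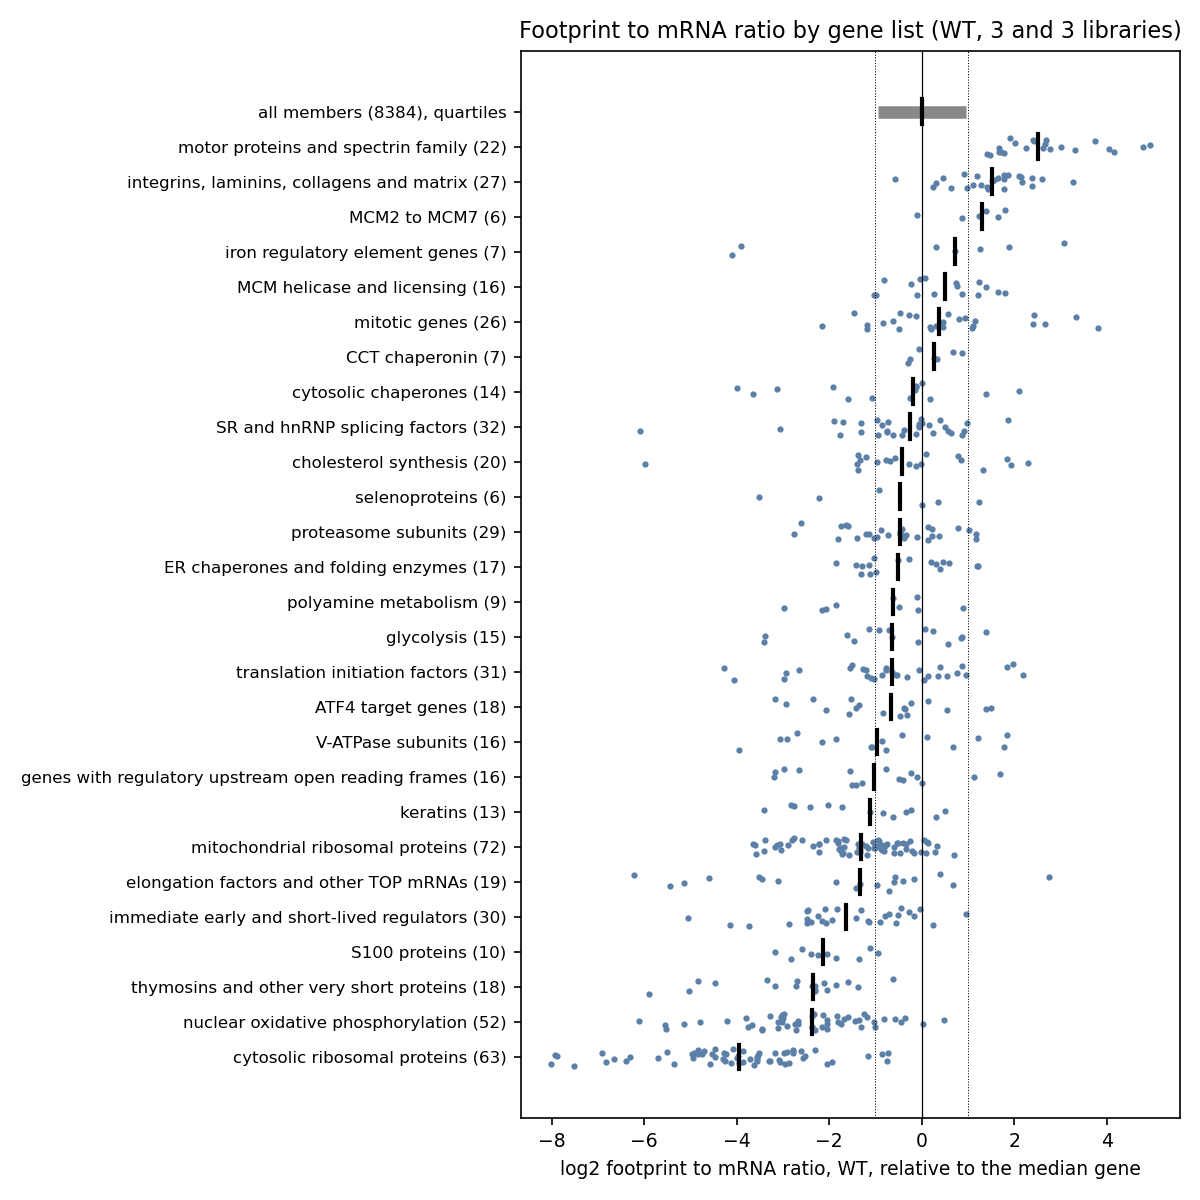
Log2 footprint to mRNA ratio in WT cells relative to the median gene (x axis) for the members of each gene list (points, numbers of members in brackets), with the list median as a black bar. The grey bar is the span between the quartiles of all 8384 members, -0.96 to 0.97, and dotted lines mark a 2-fold difference from the median gene; list medians run from -3.95 for ribosomal proteins to 2.52 for the motor and spectrin family.

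Subunits of the CCT chaperonin, the ring that folds actin and tubulin, had ratios close to each other in WT cells. The 7 members lay between -0.31 (CCT7) and 0.87 (CCT5), with an SD of 0.455 beside 1.55 for all members, and 0 were called. In 3p loss cells the same genes spanned -1.39 (TCP1, called below) to 1.19 (CCT5), and with 8p WT mRNA TCP1 was called above at 1.55. Their footprints spanned 382 to 831 CPM and their mRNA 272 to 547 TPM, a range of 2.18-fold and 2.01-fold. Over all members the 10th and 90th percentiles, a different measure from that range, stood 19.5-fold apart in footprints and 16.0-fold in mRNA. Footprints are not scaled by length, and the share of length in the spread of the CCT ratios was not computed. The eighth subunit, CCT8, was listed at 0 footprints in all 3 libraries against 354 TPM. Among the MCM2 to MCM7 subunits of the replicative helicase, which assemble in equal numbers, MCM2 (1.64), MCM3 (1.79) and MCM4 (1.38) were called above and MCM6 (1.24), MCM7 (0.86) and MCM5 (-0.11) were not. MCM4 lost its call without footprint replicate 1 (1.35) or 2 (1.34), and MCM3 without footprint replicate 3 (1.77) and with 8p WT mRNA (0.67). MCM7 had 614, 618 and 668 CPM and MCM5 147, 158 and 176 CPM, so that the lowest and highest subunits did not overlap. Of 29 proteasome subunits, 7 were below and 0 above, beside 16.0% and 16.2% of all members. Their median was -0.47, from PSMA2 (-2.77, and -0.43, not called, with 8p WT mRNA) to PSMD1 (1.17, not called, and 2.77, called above, with 8p WT mRNA). The proteasome median turned to 0.18 with 8p WT mRNA.

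Of 16 genes with regulatory upstream reading frames, 6 were called below and 1 above, beside 16.0% and 16.2% of all members. Their median was -1.03 and, in the 13 without a named pseudogene, -0.77. ATF4, which drives the genes of the stress response to amino acid shortage, had 104, 103 and 132 CPM from 525, 777 and 766 TPM, a ratio of -3.19 (SE 0.18, adjusted p = 1e-05), with pairings of libraries from -3.59 to -2.62. CEBPB, a leucine zipper factor with isoforms set by an upstream frame, stood at -1.55. PPP1R15A (GADD34), which ends the stress response, stood at -1.50 (limma, adjusted p = 0.035). ATF4 has 4 named pseudogenes, while CEBPB and PPP1R15A have none. The call of PPP1R15A was lost with any library left out except mRNA replicate 1 (-1.37 to -1.57). PPP1R15B, its constitutive counterpart, was the one called above, at 1.69, and was not called with 8p WT mRNA, at 0.54. Among 18 ATF4 target genes 3 were below and 0 above, the former near the 16.0% of all members. Their median of -0.66 had an SD between libraries of 0.89, and it was -1.94 with 8p WT mRNA and 1.29 in 3p loss cells. The amino acid transporter subunits SLC7A5 and SLC3A2 were not called, at -0.23 and -0.48, but SLC7A5 was called below with 8p WT mRNA, at -1.73. Where a footprint fell within the mRNA, leader or coding sequence, is not resolved in these counts.

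Iron genes showed both directions, and polyamine genes were called below or not at all. The ferritin chains, which store iron, were low: FTH1 had 277, 293 and 354 CPM from 2553, 3034 and 3554 TPM, a ratio of -3.90, and FTL stood at -4.10. They have 27 and 20 named pseudogenes. TFRC, the transferrin receptor, was called above at 1.90 (adjusted p = 0.012) and the hypoxia factor EPAS1 at 1.27 (adjusted p = 0.039). The call of EPAS1 was lost with the replicate block (adjusted p = 0.084), with any library left out except mRNA replicate 3 (1.24 to 1.29) and with 8p WT mRNA (0.70). In the polyamine list, 4 of 9 members were below and 0 above, beside 16.0% and 16.2% of all members. OAZ1, the antizyme made through a programmed frameshift, had 132, 146 and 126 CPM from 796, 662 and 642 TPM, a ratio of -2.97. ODC1, the ornithine decarboxylase that antizyme inhibits, was not called at 0.89. Of 6 selenoproteins, GPX1 and GPX4, peroxidases whose selenocysteine is inserted at a stop codon, were below at -3.52 and -2.22.

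Immediate early and short-lived regulators formed a low list with few pseudogenes. Of 30 members, 16 were called below and 0 above. Their median was -1.63, also in the 26 without a named pseudogene, and -1.36 with 8p WT mRNA. Footprints are not scaled by length, and the share of length in these ratios was not computed. HES1, a Notch target that represses its own gene, had 21.5, 19.6 and 20.7 CPM from 393, 563 and 433 TPM, a ratio of -5.04 (SE 0.16), and ID1, an inhibitor of helix-loop-helix factors, stood at -4.14. Over the pairings of libraries they ran from -5.49 to -4.77 and from -5.03 to -3.45. JUNB was called below at -2.16, while EGR1, with 767, 776 and 737 CPM, was not at -0.91. With 8p WT mRNA this was the other way round, with JUNB not called at -1.16 and EGR1 called below at -1.67. Of 26 mitotic genes, 5 were above, near the 16.2% of all members, and 1 was below, beside 16.0%: the proliferation marker MKI67 had 1546, 1509 and 1679 CPM from 98.8, 49.8 and 80.4 TPM, a ratio of 3.81, and the ubiquitin-conjugating enzyme UBE2C stood at -2.17.

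Keratins and metabolic genes varied within their lists. Of 13 keratins, 5 were below and 0 above, with a median of -1.11 and, in the 8 without a named pseudogene, -0.49. KRT5 and KRT6A were close to the median gene at -0.24 and -0.35, though both were called below in 3p loss cells at -1.60 and -3.19. KRT17, with 921, 983 and 1061 CPM from 3867, 3971 and 6336 TPM, stood at -2.82, and KRT19 at -3.40. KRT17 and KRT19 have 8 and 5 named pseudogenes. Of 20 cholesterol synthesis genes, 4 were above and 3 below, near the 16.2% and 16.0% of all members, and the squalene synthase gene FDFT1 had 9.19, 10.5 and 11.2 CPM from 459, 481 and 401 TPM, a ratio of -5.98. In glycolysis, 2 of 15 were below, near the 16.0% of all members: GAPDH at -3.38 and TPI1 at -3.41, with 65 and 4 named pseudogenes. The glycolysis median was -0.64 and, in the 7 without a named pseudogene, 0.25. The pyruvate kinase gene PKM was near the median gene at -0.09. V-ATPase genes, for the pump that acidifies lysosomes, ranged from ATP6V1F at -3.95 to ATP6V0A2 at 1.85, with 6 below and 2 above of 16. Cytosolic chaperones had 2 above and 5 below of 14, endoplasmic reticulum chaperones 1 below of 17, and splicing factors of the SR and hnRNP families 1 above and 6 below of 32. All these counts stand beside 16.2% above and 16.0% below over all members, and the splicing factors called below were near that share.

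The same ratio was computed in the libraries of 3p loss cells, which did not choose the members. Over the 8384 genes it correlated with that of WT cells at r = 0.853 and rho = 0.818. Of the 1355 WT calls above, 770 were also called in 3p loss cells (56.8% of the WT calls and 73.4% of the 3p loss calls), and of the 1345 below 833 (61.9% and 78.1%), while 1 gene was called in opposite directions. List medians in 3p loss cells were -3.39 for ribosomal proteins, -1.34 for immediate early genes, 0.96 for matrix genes and 2.00 for the motor and spectrin family. Other list medians turned sign between WT and 3p loss cells. ATF4 target genes went from -0.66 to 1.29, endoplasmic reticulum chaperones from -0.52 to 0.34 and the CCT subunits from 0.27 to -0.32. Mitotic genes went from 0.38 to -0.35 and the basal and general epithelial markers from -0.14 to 0.27. Cholesterol synthesis genes went from -0.43 to -1.50. EIF1 stood at -0.27 there against -2.66 in WT cells, with no test of the difference. With 8p WT mRNA over the same WT footprint libraries, the medians of the first 4 of these lists were -1.52, -1.36, 0.99 and 2.66.

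**Figure D5:**
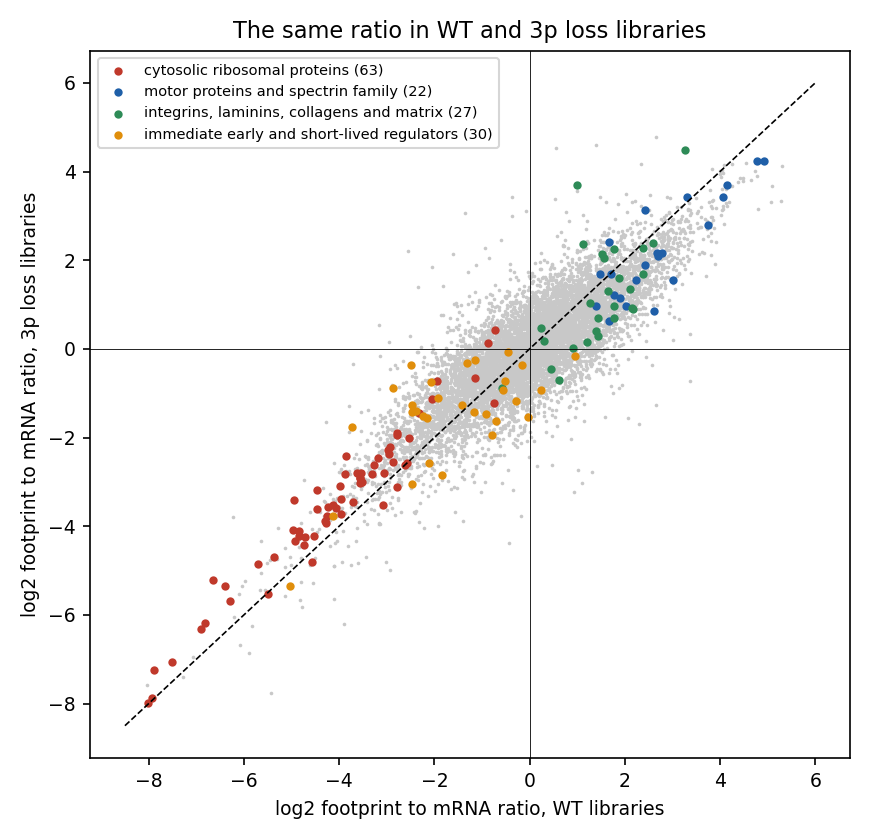
Log2 footprint to mRNA ratio relative to the median gene in WT libraries (x axis) and in 3p loss libraries (y axis) for 8384 genes, with 4 gene lists in colour and the line of equal values dashed. Points follow the line (r = 0.853), and ribosomal protein and motor family genes stay at opposite ends.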

How the data were processed

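Footprint values were whole-number counts per gene, as deposited, with no normalization by the authors, and were made into CPM over gene-named features, leaving out 1061 transcript-named ones (0.432 to 0.438% of WT counts). The mRNA values, deposited by the authors with no counts, were read as TPM from their column sums, although FPKM cannot be told apart, so that the depth behind them is unknown. The build was GRCh38, per the submitters' processing notes; for aligner, counter and annotation, these are not given in the sources used here. All 17671 shared genes were joined by exact name. Values were put on the log2(value + 0.5) scale, which understates changes of low genes, each library was centred on its median member, and 3 footprint libraries were compared with 3 mRNA libraries in limma 3.58.1 (lmFit, treat with a 2-fold minimum and a trend; R 4.3.3), with Benjamini-Hochberg adjustment over all members at 0.05. On simulated data with 8384 genes, the test recovered 17 of 100 genes changed 3-fold and 88 of 100 changed 6-fold, with 1 false call. All genes but these 200 were simulated with no difference from the median gene, below the 2-fold minimum. The measured ratios were spread far more widely, with an SD of 1.55, so that these rates are not those of the data. Footprint totals of 5630920 to 8521557 set the counting error, and p-values measure the spread between these replicates.

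The members and gene lists were chosen with earlier results of these data known. The genes named were the 12 highest and 12 lowest called genes with at least 50 CPM or 50 TPM, the 4 members of each list with the most mRNA and its extremes, and ATF4, PPP1R15A, ODC1, FTH1, FTL, TFRC and AMD1; some of these are not reported here by name, though every fit and count holds them. Genes with the most footprints, those at 0 footprints, those of the dense windows and the subunits of CCT and MCM2 to MCM7 were named after their values were seen, as were MT2A, SSBP1, PRRC2A and CTSB. A ratio per coding length was planned and not run, since no table of coding lengths was used. Pseudogenes were counted by name in the RefSeq gene table of GRCh38.p14. Alternatives were other pseudocounts, filters, scalings (edgeR 4.0.16), mRNA libraries, a replicate block and leaving out each library.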

Additional observations from a re-analysis of the deposited data

Results flagged for a closer look

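In 5 of the named genes, every pairing of WT libraries put the ratio on one side of the median gene and every pairing of 3p loss libraries on the other; the differences were not tested. CCT3 stood at 0.34 in WT and -0.82 in 3p loss cells and TPX2, a spindle assembly factor, at 0.46 and -0.47. The stress factors CEBPB and XBP1 stood at -1.55 and -1.86 in WT and at 0.50 and 0.76 in 3p loss cells, and PSAT1, of serine synthesis, at -2.35 and 1.39. The mRNA of PSAT1 was 129, 505 and 414 TPM in the 3 WT libraries, and that of XBP1 76.7, 146 and 212 TPM.

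Footprints were also counted for genes that the chromosome 3 mRNA table does not name, so that no ratio was made. The 13 mitochondrially encoded genes held 1.69% of WT footprints, led by MT-ND6 with 2174, 2174 and 2451 CPM and MT-ND4 with 2401, 2319 and 1990 CPM. The 50 replication-dependent histone genes held 0.715%, led by H3C2 with 552, 555 and 795 CPM.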

How the results depend on the processing

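Of the alternatives run, dropping the 2-fold minimum moved the number of called genes most, to 3218 above and 3133 below the median gene. Leaving out each library in turn gave 1164 to 1405 genes above and 1223 to 1362 below. Same-numbered footprint and mRNA libraries did not deviate together (correlations of 0.03, -0.05 and -0.08), and the replicate block gave 1317 and 1336, 8p WT mRNA 1724 and 1650, and footprint replicates 1 and 2 summed as a single library 1179 and 1233. The last 2 alternatives were chosen after seeing the data: the 6785 genes without a named pseudogene gave 1052 and 982, and 3p loss libraries 1061 and 1055. Sign changes were counted only for named genes called in the main setting or in the alternative. With 8p WT mRNA they were 6 of the 165, RPL37A (1.07), RPS19 (1.70), MRPS15 (0.15), TCP1 (1.55), HNRNPA2B1 (1.56) and KRT80 (-2.73). In 3p loss libraries they were 3, CEBPB (0.50), PSAT1 (1.39) and XBP1 (0.76), and the cause was not tested. Genes called in neither setting changed sign as well. KRT7 went from -0.63 to 0.28 and SLC7A1 from 1.49 to -0.83 with 8p WT mRNA, and CCT3 from 0.34 to -0.82 in 3p loss libraries. Leaving out a library took the call from 3 to 9 of the 165 genes. List medians moved beyond their spread between libraries in 21 of 28 lists with 8p WT mRNA and in 21 with 3p loss libraries. Such moves were seen in 17 lists with genes that have a named pseudogene left out, and in 6 with a mean of at least 10. The ratio per coding length and its comparison with the unscaled one were not run. Footprint depth limits genes near 5 CPM, and the depth of the mRNA is unknown.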

Other observations

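Low ratios were also seen in genes with no named pseudogene. After TMA7, the lowest of those with at least 50 TPM were SSBP1, which binds single-stranded mitochondrial DNA, at -6.04, FDFT1 at -5.98, MT2A at -5.43, the class I histocompatibility gene HLA-C at -5.30 and CTSB, the lysosomal protease cathepsin B, at -5.29. FDFT1 and CTSB are neighbours on chromosome 8, from 11795582 to 11839298 and from 11842524 to 11868087 (RefSeq, GRCh38.p14), and had 10.3 ± 1.02 and 7.13 ± 1.81 CPM (SD, n = 3) against 447 and 194 TPM. HLA-C and PRRC2A, the latter at -4.55, lie within the stretch of chromosome 6 in which most expressed genes had 0 footprints. The ratios of FDFT1 and CTSB were -5.24 and -4.04 in 3p loss libraries and -4.95 and -4.70 with 8p WT mRNA. Whether the position of these genes bears on their footprint counts was not tested.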
